A study of Mus musculus with 6 samples.

Results

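The 4 miRNAs described here are miR-199a-5p, miR-381-3p, miR-503-5p and miR-467c-5p. Each comes from a polycistronic cluster, a stretch of genome in which several miRNA hairpins are cut from one primary transcript, and each is the single annotated member of its cluster in the authors' lists of up- and down-regulated miRNAs. Members were found by name in those lists, where they fill 5 entries, and entries with the same mature sequence were counted once. The lists hold 55 distinct sequences, 22 up and 33 down, and all 4 members stood in the down-regulated list. The full tables hold 1272 distinct sequences, of which 1005 had a tag in at least 1 library. The authors had listed the members on fold and p in these same libraries, so their presence in the list is not independent evidence of a difference.

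The samples were mouse renal tubular epithelial cells (mRTECs) of the C57BL/6 strain, the cells that line the tubules of the kidney. All 6 had first received TGF-β1, a cytokine that drives such cells toward a fibrotic state, for 48 h, so the controls carried that treatment too. In 3 samples the mRTECs were then co-cultured for 24 h with bone marrow mesenchymal stem cells (BM-MSCs), held apart by a Transwell membrane, and in the 3 controls the upper chamber held medium alone. The mRTECs were a purchased primary cell product, and neither the labels nor the methods tell if a group's 3 libraries stand for 3 cultures, so a p-value covers library-to-library spread that could be technical. In such bulk samples, fewer cells of a type and less RNA per cell cannot be told apart.

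A miRNA hairpin yields up to a pair of mature strands, named 5p and 3p for the arm they come from, and a mature miRNA recognises its targets mainly through its seed, bases 2 to 8. Hairpins of one cluster are transcribed together, but the level of each mature strand also depends on its processing and on its stability. miR-199a and miR-214 lie in Dnm3os, a non-coding RNA that runs antisense to the gene Dnm3 and is known from mesenchymal cells and fibrosis. miR-381 belongs to the imprinted Dlk1-Dio3 region, whose miRNAs are made from the maternal chromosome. miR-503 lies beside miR-322, the mouse counterpart of human miR-424, in an X-linked cluster known for restraining the cell cycle, and miR-467c lies in the large rodent miRNA cluster within the imprinted gene Sfmbt2.

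The mature sequences of the members are shown 5′ to 3′ because the seeds separate them from their cluster mates, with the seed in capitals.
miR-199a-5p: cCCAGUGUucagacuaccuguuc
miR-381-3p: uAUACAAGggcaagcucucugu
miR-503-5p: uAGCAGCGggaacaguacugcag
miR-467c-5p: uAAGUGCGugcauguauaugug
All were read from the deposited tables. RefSeq holds the same sequence for the first 3 and has no entry for miR-467c-5p. No other sequence of the tables had the seed of miR-381-3p, miR-503-5p or miR-467c-5p. The seed of miR-199a-5p was shared by 1 other sequence, miR-199b-5p, which was blank in all 6 libraries.

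Cluster mates and relatives named below are shown the same way, so that their seeds can be set against those of the members.
miR-199a-3p: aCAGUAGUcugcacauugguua
miR-503-3p: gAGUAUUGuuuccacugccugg
miR-322-5p: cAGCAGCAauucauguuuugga
miR-16-5p: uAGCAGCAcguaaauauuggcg
miR-467a-5p: uAAGUGCCugcauguauaugcg
Positions in these comparisons count from the 5′ end of the mature strand. Within the first 8 bases, miR-503-5p differed from miR-322-5p by C1U and A8G, and from miR-16-5p, a founding member of the miR-15/16 family to which miR-503 is related, by A8G alone. Over its whole length miR-467c-5p differed from miR-467a-5p by C8G and C21U, so that the seeds of the pair end in different bases.

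Matched to the GENCODE M21 annotation of GRCm38, which is not the build the authors used, miR-503-5p came from a 71-base hairpin, Mir503, at chrX:53053984-53054054 on the minus strand, with no host gene annotated. miR-381-3p came from the 75-base hairpin Mir381 at chr12:109726822-109726896 on the plus strand, also with no host gene annotated. The hairpin Mir467c, 97 bases at chr2:10473931-10474027, lay within Sfmbt2 on the same strand. The sequence of miR-199a-5p occurred in 2 hairpins, Mir199a-2 at chr1:162217814-162217923, within Dnm3os on the plus strand, and Mir199a-1 at chr9:21496495-21496564, antisense to Dnm2. Its tags cannot be divided between these loci, so how many came from the Dnm3os cluster is not known.

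A pair of features of the libraries bears on every value below. In the deposited tables the mean headed as co-culture is that of the 3 libraries that GEO labels control, so directions are given by label and turn under the tables' naming. The paper names miR-146a-5p as the miRNA most significantly raised by co-culture. By label its log2 difference, labelled co-cultured minus labelled control, was -4.76 (edgeR, adjusted p = 0.000186). The direction that the paper reports is thus that of the tables' naming. For that direction the paper gives RT-qPCR as well as the sequencing. The other miRNAs that it checked by RT-qPCR were also lower by label in the labelled co-cultured libraries. Their edgeR log2 differences were -8.59 (miR-12194-3p), -7.43 (let-7i-3p), -2.26 (miR-210-3p) and -3.39 (miR-210-5p). Which naming is right was not tested here. In addition, labelled co-cultured replicate 1 lay between the other 2 libraries of its group in 113 of 127 abundant sequences (mean of at least 50 CPM, counts per 1000000 mapped tags), or 89.0%, where exchangeable libraries would give 33.3%. Its counts were close to 0.491 times those of replicate 2 plus 0.509 times those of replicate 3 on the CPM scale. Labelled control replicate 2 lay between its sisters in 118 of 129 sequences, or 91.5%, close to 0.419 and 0.580 times replicates 1 and 3. Of the sequences with at least 10 tags in one sister and none in the other, labelled co-cultured replicate 1 held tags for 367 of 367 and control replicate 2 for 291 of 291. This share was also complete in labelled co-cultured replicates 2 and 3 (72 of 72 and 64 of 64). It was complete in labelled control replicates 1 and 3 too (33 of 33 and 97 of 97), so the share by itself does not single out any library. The number of such sequences did differ, and in each group it was highest for the library that lay between its sisters (367 and 291). Labelled co-cultured replicate 1 and labelled control replicate 2 are called mixture-like, and the main results are also given without them, at 2 libraries a group.

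The libraries held 3740503 to 4038815 mapped tags in the labelled co-cultured group and 2873703 to 3029205 in the labelled control group. A blank cell was read as 0, but no cell held a count of 1 and the smallest count listed was 2, so a blank may hide a low count. Blanks also stood beside at least 10 tags in a sister library. This held for 367 sequences between labelled co-cultured replicates 2 and 3 and for 291 between labelled control replicates 1 and 3. Limits given below for a 0 hold only where the blank is a count of 0. edgeR's quasi-likelihood test, with Benjamini-Hochberg adjustment and a threshold of 0.05 throughout, called 72 of the 314 miRNAs that passed its filter on low counts, or 22.9%. Of these 26 were higher in the labelled co-cultured libraries (8.28% of those tested) and 46 in the labelled control. Scaling to library totals in place of TMM factors raised the median log2 difference of all tested miRNAs from -0.02 to 0.18 and turned the split to 46 and 32. Without both mixture-like libraries edgeR called 0 of 324 (0%), although 53 had an unadjusted p under 0.05, limma called 0 and DESeq2 called 11. The 12 rows of the tubular marker list (miR-10, miR-30, miR-192 and miR-194) summed to 18988 to 22668 CPM, but miR-10a-5p and miR-10b-5p supplied most of that. miR-192-5p stood at 295 CPM in the labelled co-cultured and 438 CPM in the labelled control group. miR-194-5p stood at 11.6 and 12.9 CPM, and miR-204, also on the list, had no row. The 6 rows of the epithelial miR-200 list summed to 26.6 to 66.0 CPM, and miR-200a-3p was listed at 0 in every library. The 4 rows of the blood cell list summed to at most 1.60 CPM.

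All 4 members were higher in every labelled co-cultured library than in any labelled control library. Groups did not overlap in this direction for 79 of the 1005 sequences with a tag, or 7.86%, and for 20.7% of the 314 that passed the filter. Since the members were taken from a list made on these values, nothing is read from that difference in shares. Of the 4, 3 passed the filter. With 6 libraries 0 were called, and 0 without the mixture-like libraries, beside 22.9% and 0% of all tested miRNAs. The 3 tested members had unadjusted p below 0.05 for miR-199a-5p and miR-381-3p but not for miR-503-5p. All were of low abundance, with group means of 13.4 CPM at most.

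**Figure D1:**
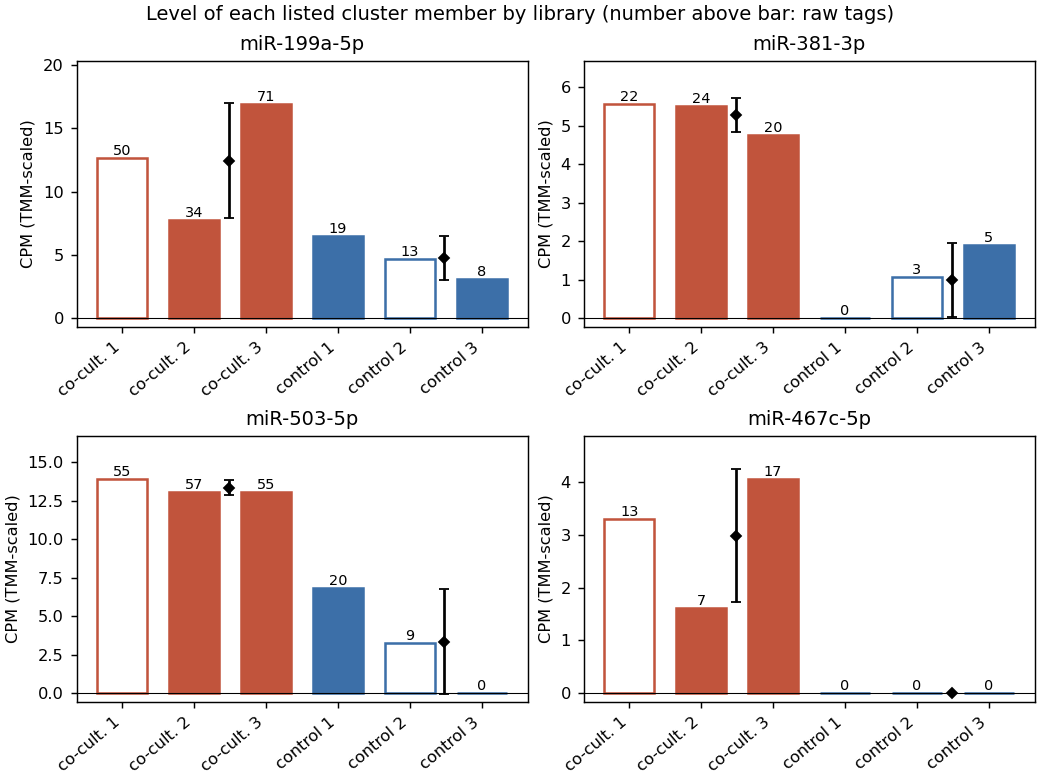
Level of each member in the 6 libraries in TMM-scaled CPM, with the raw tag count above each bar; "co-cult." and "control" are the sample labels, open bars are the mixture-like libraries, and diamonds with bars give the group mean ± SD (n = 3). The lowest labelled co-cultured library stood above the highest labelled control library in all 4 panels, and labelled control libraries were at 0 tags in 1 library each for miR-381-3p and miR-503-5p and in all 3 for miR-467c-5p.

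miR-503-5p, a relative of the miR-15/16 family that acts on cyclins and other cell cycle genes, was counted 55, 57 and 55 times in labelled co-cultured replicates 1 to 3 and 20, 9 and 0 times in labelled control replicates 1 to 3. The co-cultured libraries were nearly equal, while the control libraries ran from no tag to a level about midway between 0 and the co-cultured one. In CPM the groups stood at 13.4 ± 0.480 and 3.36 ± 3.41 (SD, n = 3). The log2 difference, labelled co-cultured minus labelled control, was 1.97 with an SE of 0.998 (edgeR, adjusted p = 0.202), and 1.92 with an adjusted p of 0.741 without the mixture-like libraries. It passed the threshold only when labelled control replicate 1 was left out (log2 difference 3.01, edgeR adjusted p = 0.0394). In that fit 217 of 532 miRNAs were called, or 40.8%, and 9.4% were called higher in the labelled co-cultured libraries, with the mixture-like replicate 2 as 1 of the 2 controls left. In the authors' normalized table, rounded to whole numbers, the same libraries read 7, 7 and 7 against 4, 2 and 0, so rounding had removed the whole spread of the labelled co-cultured group.

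The other arm of the same hairpin, miR-503-3p, was counted 32, 18 and 58 times against 33, 15 and 6 times. These groups overlapped, and the log2 difference was 0.45 with an SE of 0.714 (edgeR, adjusted p = 0.706). The 5p arm thus took 63.2%, 76.0% and 48.7% of the hairpin's tags in the labelled co-cultured libraries and 37.7%, 37.5% and 0% in the labelled control libraries. The 95% Wilson interval ran from 65.2% to 84.2% for the highest of these shares and from 39.7% to 57.8% for the lowest co-cultured one. In labelled control replicates 1 to 3 the intervals were 25.9% to 51.2%, 21.2% to 57.3% and 0% to 39.0%. Those of labelled control replicates 1 and 2 overlapped that of the lowest co-cultured share. The share of 0% rests on 6 tags, of which 3 counts, the limit that a count of 0 allows, would be 50%. Intervals and limits cover counting error only. The group shares of 62.6% ± 13.7 and 25.1% ± 21.7 did not overlap, and their difference was 37.6 percentage points, or 43.5 without the mixture-like libraries. An exact two-sided permutation test gave p = 0.1, the smallest that 3 libraries against 3 allow, and 0.167 after adjustment over the 5 shares compared here and below. The test could thus not pass the threshold, and it counts the mixture-like libraries as separate. Since miR-503-5p was listed on values of these same libraries, the gap in its share is not independent evidence of a difference.

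miR-322, the nearest neighbour, showed no such gap. miR-322-5p, the strand with most of the seed of miR-503-5p, was counted 304, 354 and 288 times against 259, 180 and 97 times. Its log2 difference was 0.25 with an SE of 0.293 (edgeR, adjusted p = 0.598), and its groups overlapped. miR-322-3p was counted 255, 306 and 239 times against 212, 189 and 163 times, a log2 difference of -0.09 with an SE of 0.127. The 5p strand took 53.6% to 54.6% of the tags of mir-322 in the labelled co-cultured libraries. In the labelled control libraries it took 55.0%, 48.8% and 37.3%, the lowest share falling in the library in which miR-503-5p had no tag (exact permutation p = 0.4 between groups).

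Of the 11 further mature strands of the X-linked cluster, all had tags, 7 were tested and 0 were called, beside 22.9% of all tested miRNAs. Those with the highest counts were miR-542-3p, with 465, 639 and 362 tags against 226, 284 and 306, and miR-450b-5p, with 369, 363 and 466 against 333, 279 and 253. Their log2 differences were 0.24 (SE 0.234) and -0.12 (SE 0.135). miR-351-5p, at 68, 89 and 61 tags against 76, 62 and 40, differed by -0.29 (SE 0.285). miR-450a-5p, which is read from a pair of hairpins, had 75, 111 and 60 tags against 42, 40 and 33. Its log2 difference of 0.50 (SE 0.297, edgeR adjusted p = 0.266) was the highest among the mates tested in this cluster. The median over the 7 tested mates was 0.24, against -0.02 over all tested miRNAs.

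**Figure D2:**
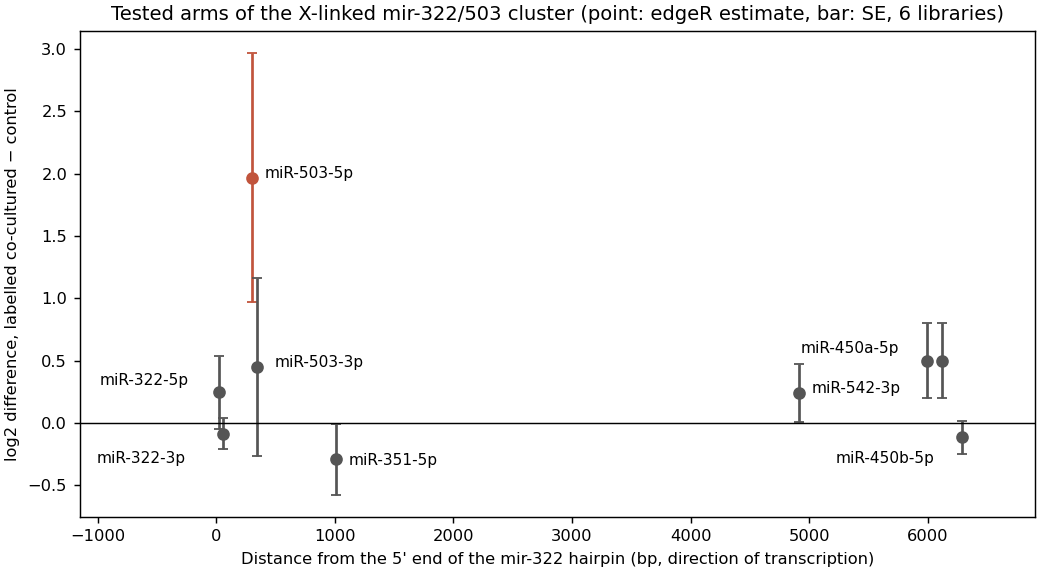
Log2 difference (labelled co-cultured minus labelled control, edgeR estimate ± SE over 6 libraries) of each tested strand of the X-linked cluster against its distance along the transcript in bp; miR-450a-5p appears at both of its hairpins. miR-503-5p stands at 1.97 with the widest bar, and the 7 mates lie between -0.29 and 0.50. Each SE was derived from the F statistic of the test.

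The remaining strands of that cluster were sparse. miR-351-3p was counted 9, 15 and 0 times in the labelled co-cultured libraries and was listed at 0 in the labelled control. miR-542-5p went the other way, with 0, 0 and 0 tags against 21, 13 and 0. miR-450b-3p likewise had 0, 0 and 0 against 0, 9 and 13, and miR-450a-1-3p had 4 tags in labelled co-cultured replicate 3 alone. None of these 4 passed the filter. miR-450b-3p entered the test when labelled control replicate 1 was left out, and was then the only mate of any cluster to be called, higher in the labelled control.

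As a share of all tags of the X-linked cluster, a measure that needs no scaling between libraries, miR-503-5p made up 3.37%, 2.92% and 3.45% in the labelled co-cultured libraries. In the labelled control libraries it made up 1.64%, 0.833% and 0%, from 911 to 1222 cluster tags. The 0 in labelled control replicate 3 allows a share of up to 0.329% (3 counts of 911 tags), if the blank is a count of 0. The groups did not overlap, with means of 3.25% ± 0.287 and 0.823% ± 0.818, a difference of 2.42 percentage points and of 2.37 without the mixture-like libraries (exact permutation p = 0.1, the smallest possible).

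**Figure D3:**
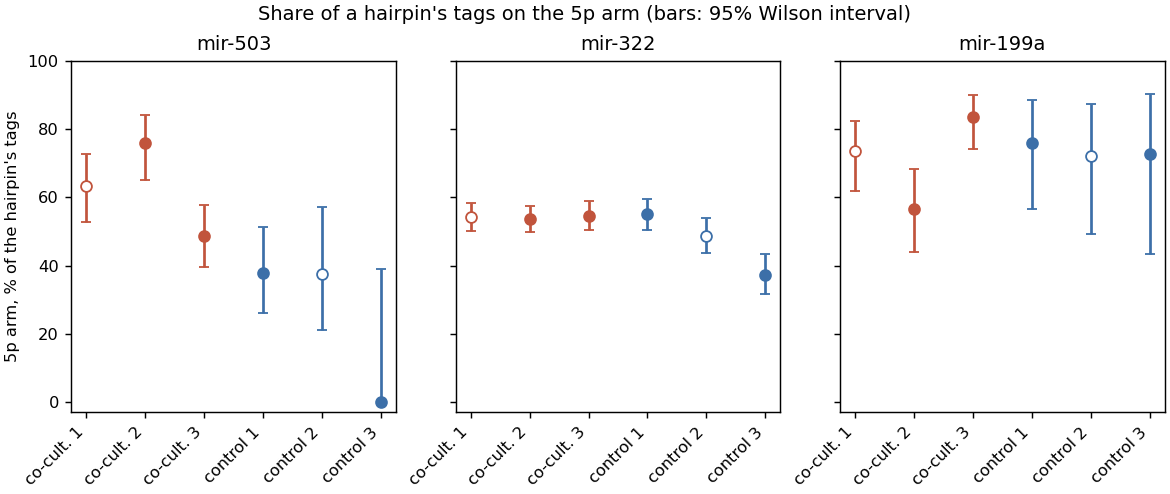
Share of tags on the 5p arm of mir-503, mir-322 and mir-199a in each library (points, with 95% Wilson intervals; open points are the mixture-like libraries). For mir-503 the labelled co-cultured libraries lie at 48.7% or above and the labelled control libraries at 37.7% or below, whereas the groups overlap for mir-322 and mir-199a.

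The abundant miR-15/16 strands, relatives of miR-503-5p in other clusters, were not called on their main strands. miR-15b-5p was counted 2317, 2453 and 2398 times against 1576, 1374 and 1049 times, a log2 difference of 0.26 with an SE of 0.108 (edgeR, adjusted p = 0.132). miR-16-5p, counted 1269, 1517 and 1124 times against 1199, 1079 and 953 times, had a log2 difference of -0.31 with an SE of 0.108 (adjusted p = 0.0837). Their passenger strands miR-15b-3p and miR-16-1-3p were called higher in the labelled control, with log2 differences of -0.92 (SE 0.0837) and -0.85 (SE 0.0818) and an edgeR adjusted p of 0.00138 each, which became 0.200 without the mixture-like libraries. miR-16-2-3p, the passenger strand of the other miR-16 hairpin, was counted 23, 30 and 19 times against 9, 17 and 16 times and was not called (log2 difference 0.17, SE 0.488, adjusted p = 0.862). miR-195a-5p and miR-497a-5p were at 8 and 20 tags at most and were not tested.

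miR-199a-5p, known from fibroblasts and from fibrotic tissue, was counted 50, 34 and 71 times in the labelled co-cultured libraries and 19, 13 and 8 times in the labelled control libraries. The lowest co-cultured library, at 7.79 CPM, lay close above the highest control library at 6.48 CPM. The group means were 12.5 ± 4.56 and 4.75 ± 1.71 CPM (SD, n = 3), and the log2 difference was 1.38 with an SE of 0.490 (edgeR, unadjusted p = 0.0279, adjusted p = 0.0895). Without the mixture-like libraries it was 1.36 with an adjusted p of 0.662. It passed the threshold only without labelled control replicate 1 (1.70, edgeR adjusted p = 0.0388), the fit in which 40.8% of all miRNAs tested were called.

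Its partner strand had a log2 difference of about the same size. miR-199a-3p, identical in sequence to miR-199b-3p and so also read from the hairpin Mir199b, was counted 18, 26 and 14 times against 6, 5 and 3 times. The groups did not overlap and the log2 difference was 1.44 with an SE of 0.534 (edgeR, adjusted p = 0.10). The 5p strand had a share of the tags of mir-199a of 71.2% ± 13.6 in the labelled co-cultured and 73.6% ± 2.05 in the labelled control libraries (exact permutation p = 0.9). In mir-503 the groups were apart on 1 arm and overlapped on the other, but the 2 hairpins were not tested against each other. miR-214-5p, the cluster mate in Dnm3os, had 0 tags in each labelled co-cultured library and 9, 4 and 0 in the labelled control libraries, the opposite order at a level too low for the test. The search for mates took either arm of miR-214 and found no other row, so no value can be given for miR-214-3p.

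miR-199b-5p, which has the seed of miR-199a-5p and differs from it by C10U, was listed at 0 in all 6 libraries. miR-199a-3p belongs to the mesenchymal stromal marker list, since BM-MSCs were on the other side of the membrane. That list of 7 rows summed to 469 to 505 CPM in the labelled co-cultured and 760 to 846 CPM in the labelled control libraries. Of its 6 tested rows 2 were called, miR-140-5p higher in the labelled co-cultured and miR-143-3p higher in the labelled control, and miR-143-3p supplied most of the sum at 353 ± 8.10 against 671 ± 20.03 CPM. These calls stand against the 22.9% of all tested miRNAs that were called, and both were lost without the mixture-like libraries (edgeR, adjusted p = 0.341 and 0.0585). The median log2 difference over the 6 tested rows was 0.17, but these include miR-199a-3p, the partner strand of a member, at 1.44. The other tested rows ran from -0.93 (miR-143-3p) to 0.84 (miR-140-5p), with miR-218-5p in the middle at -0.30. The list thus had no single direction. The part of stromal RNA in the values of miR-199a-5p was not tested.

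miR-381-3p, an imprinted miRNA that is abundant in brain and embryo, was counted 22, 24 and 20 times in the labelled co-cultured libraries and 0, 3 and 5 times in the labelled control libraries. The co-cultured values were tight and every control library held less than the lowest of them. The means were 5.28 ± 0.445 and 1.00 ± 0.961 CPM (SD, n = 3). The log2 difference was 2.38 with an SE of 0.951 (edgeR, unadjusted p = 0.0435, adjusted p = 0.117), and 2.39 with an adjusted p of 0.695 without the mixture-like libraries. Leaving out single libraries moved it between 1.83 and 3.24 with no call.

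The other miRNAs of the Dlk1-Dio3 region gave few tags. Of 67 annotated hairpins between Dlk1 and Dio3, 7 matched a sequence of the tables and 5 of those had tags. miR-127-3p, an arm antisense to the gene Rtl1, was counted 15, 37 and 0 times against 3, 3 and 0 times. miR-370-3p, from the non-coding RNA Rian, was counted 12, 30 and 0 times in the labelled co-cultured libraries and was listed at 0 in the labelled control. Both were thus listed at 0 in labelled co-cultured replicate 3, where miR-381-3p had 20 tags, and both had most tags in replicate 2.

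miR-369-3p had 3 tags in 1 library, and miR-299a-3p and miR-379-5p were listed at 0 throughout. None of the 5 mates chosen by name passed the filter. miR-1247-3p, found by position near Dio3 after the values were seen, had 17, 0 and 23 tags against 0, 14 and 22 and was tested but not called.

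miR-467c-5p was counted 13, 7 and 17 times in the labelled co-cultured libraries and was listed at 0 in all 3 labelled control libraries. It did not pass the filter on low counts, so it has no test of its own. Pooled over the group it stood at 2.96 CPM. Against a floor of 3 counts over the labelled control group, or 0.361 CPM, it was 8.18-fold higher, and 5.18-fold higher without the mixture-like libraries. Both folds assume that a blank is a count of 0. Blanks often stood beside at least 10 tags in a sister library, so the folds are not firm lower bounds. With the filter removed edgeR gave an adjusted p of 0.157, or 0.604 without the mixture-like libraries, and among the 10 alternatives that gave it an adjusted p, the threshold was passed in 1, without labelled control replicate 1 (0.0239), where 40.8% of all miRNAs tested were called.

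Its near-identical mate did not share this pattern. miR-467a-5p was counted 25, 27 and 30 times against 31, 27 and 22 times. In TMM-scaled CPM it was higher in every labelled control library, at 6.55 ± 0.518 against 9.60 ± 1.08 CPM. By library totals alone the groups overlapped. The 22 tags of labelled control replicate 3 came from 2995154 tags, a slightly lower level than 30 of 4038815 in labelled co-cultured replicate 3. The log2 difference was -0.55 with an SE of 0.358 (edgeR, adjusted p = 0.310). Of the tags of both, miR-467c-5p held 34.2%, 20.6% and 36.2% in the labelled co-cultured libraries and 0% in each labelled control library. The smallest control total, 22 tags, allows a share of up to 13.6% (3 counts), if the blank is a count of 0. The lowest co-cultured share lay above that limit, but its Wilson interval, 10.3% to 36.8%, reached below it. The exact permutation p was 0.1, again the smallest possible, and 0.167 adjusted. The members were listed on values of these same libraries, so the gap in this share is not independent evidence of a difference. The same holds for the shares of miR-503-5p above.

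In the whole Sfmbt2 cluster, Mir467c and the hairpins of miR-467a-5p included, 33 of 119 annotated hairpins matched a sequence with tags, many of them copies that share a mature sequence. miR-467e-5p was counted 5, 12 and 0 times in the labelled co-cultured libraries and was listed at 0 in the labelled control. miR-669f-3p and miR-669l-5p had the opposite order, at 0 tags in the labelled co-cultured libraries and at 9, 5 and 0 and at 13, 4 and 0 in the labelled control. miR-467b-5p and miR-669a-5p had 2 tags in 1 library each. Of the 6 mates 1 was tested and 0 were called.

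By position, 3 further sequences that the tables name only as predicted miRNAs lay in the same cluster. Of these, 1 was listed at 0 in all 6 libraries, and the other 2 were counted in each labelled co-cultured library and listed at 0 in the labelled control. They held 3, 8 and 6 tags and 5, 9 and 7 tags. The latter is in the authors' down-regulated list. miR-467c-5p was therefore the single listed member of this cluster by its annotated name, but not by position.

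Across all 4 clusters 24 mates were found by name, 9 were tested, 0 were called by edgeR with 6 libraries or without the mixture-like libraries, and 0 stood in the authors' lists. Of all miRNAs tested, 22.9% of 314 were called with 6 libraries and 0% of 324 without the mixture-like libraries. The lists hold 55 distinct sequences, beside 1005 with a tag. With so few mates, counts of 0 do not set them apart from these shares. Of the 9 tested mates, unadjusted p was below 0.05 for miR-199a-3p alone. By DESeq2 and by limma at each pseudocount no mate was called either. The tested mates included the strands of highest count in the X-linked cluster, whereas those of Dlk1-Dio3 were too sparse for any statement on a shared direction.

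**Figure D4:**
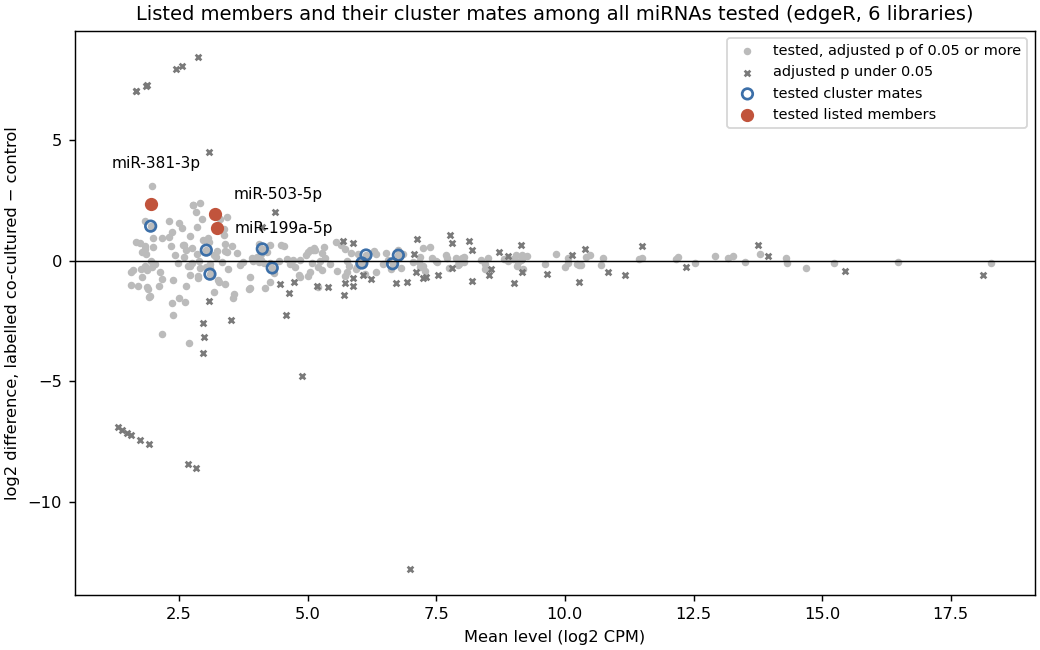
Log2 difference (labelled co-cultured minus labelled control) against mean level in log2 CPM for the 314 miRNAs tested by edgeR in 6 libraries; crosses have an adjusted p under 0.05, red points are the 3 tested members and blue rings the 9 tested mates. The members lie among the low-level miRNAs, where differences spread widely, and above the mates except for miR-199a-3p.

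The miRNAs whose levels ran most like those of each member were found by the root mean square distance of centred log2(CPM + 1) over the 6 libraries, among 307 with a mean count of at least 10. miR-503-5p was nearest to miR-1983 (0.201), with 41, 57 and 37 tags against 19, 8 and 0, and to miR-27b-5p (0.210), with 63, 46 and 64 against 27, 9 and 0. For miR-381-3p the nearest were miR-532-3p (0.140), with 137, 146 and 112 tags against 11, 25 and 28, and miR-331-3p (0.281). miR-199a-5p was nearest to a predicted miRNA without an annotated name (0.154), with 28, 16 and 35 tags against 10, 5 and 2, and to miR-149-5p (0.290), with 246, 208 and 304 tags against 152, 108 and 60. miR-467c-5p was nearest to miR-3066-5p (0.334) and miR-101b-3p (0.401), the latter also listed at 0 in all labelled control libraries. None of these 8 nearest miRNAs was a cluster mate of a member. Of the mates found by name only the 9 tested ones reached that mean count, and none of those was from Dlk1-Dio3. With so few mates among the 307, nothing is read from their absence.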

How the data were processed

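Small RNA of 6 samples, 3 per group, was sequenced on an Illumina platform. Bowtie 0.12.2 and the builds mm8 and mm9 appear in the submitters' processing notes, with no role. The sources used here give neither the counting program nor a filter. The authors deposited raw tag counts per mature miRNA and library. They also deposited normalized counts rounded to whole numbers, treated here as a score, whose normalization is not given, and lists of selected miRNAs. The authors' fold, p and FDR columns in those tables were not used. Each full table has 1 row without a name, which was left out.

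Groups came from the sample labels. Blanks were read as 0 and rows with one mature sequence were merged. The main test was edgeR 4.0.16 (R 4.3.3; filterByExpr, TMM factors, quasi-likelihood, two-sided) on the raw counts of all 6 libraries, adjusted over all miRNAs tested. CPM are counts per 1000000 mapped tags, with TMM factors. edgeR's quasi-likelihood test returns no SE, so each edgeR SE is the absolute log2 difference divided by the square root of the test's F statistic. The fit was tested on simulated data. Exact permutation tests and Wilson intervals used scipy 1.17.1. Alternatives were RLE factors, library totals, DESeq2 1.42.0, no filter, a mean count of at least 10, limma 3.58.1 on log2 of the normalized values with a pseudocount of 1, 0.1 or 5, the replicate block, each library left out and the tables' group naming. Leaving out both mixture-like libraries was added after seeing the data.

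Named miRNAs were the members, the other arm of each hairpin, all mates of the Dnm3os and X-linked clusters, the most abundant, called or listed mates of the others, seed-sharing and miR-15/16 relatives, and the 2 nearest in pattern. The other miRNAs named were chosen after their values were seen. Members and lists were chosen with earlier results of these data known.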

Additional observations from a re-analysis of the deposited data

How the results depend on the processing

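Counts of at most 71 tags per library limit every member, and blanks may hide low counts. The whole-table count of 72 calls stayed within 1.5 times under RLE factors, library totals, DESeq2, no filter, a mean count of at least 10 and limma with a pseudocount of 0.1. It fell to 39 and 44 under limma with pseudocounts of 1 and 5, and ran from 17 to 217 as single libraries were left out, the highest count being that without labelled control replicate 1. Without both mixture-like libraries it was 0 by edgeR, 20 with no filter, 11 by DESeq2 and 0 by limma. The causes were not tested.

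The log2 difference of the tested members kept its sign in all alternatives that kept the label's groups. As single libraries were left out it ran from 1.10 to 1.70 for miR-199a-5p, from 1.83 to 3.24 for miR-381-3p and from 1.42 to 3.01 for miR-503-5p. Over all alternatives with the labelled groups the lowest values were 0.72, 0.50 and 0.82, all under limma with a pseudocount of 5, which shrinks the differences of low counts, and the highest were 1.74, 3.24 and 3.01. The count of called mates in the X-linked cluster ran from 0 to 1 in the same fits. With the groups named as in the tables the signs turn, to -1.38, -2.38 and -1.97, and the difference of miR-467c-5p in mean CPM from 2.98 to -2.98. That quantity has no value under the alternatives that change only the test or the filter. Same-numbered libraries of the groups did not deviate together (r = 0.01, -0.07 and 0.02), so the numbers do not pair the samples. The highest correlation between groups, 0.45, was that of the mixture-like libraries, which carry different numbers. With a replicate block edgeR called 60 miRNAs, and the members had log2 differences of 1.36, 2.72 and 2.52 with adjusted p of 0.281, 0.307 and 0.139.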
